A study of Mus musculus with 6 samples.

Results

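The tuft lineage transcription factors and their coactivator comprise 9 of the 55471 genes in the expression table. They were taken by name: the POU homeobox factor Pou2f3, its coactivator Pou2af2, the zinc finger repressor Gfi1b, the homeobox factors Hmx2 and Hmx3, the helix-loop-helix factor Ascl2, the HMG box factor Sox9, the ETS factor Spib and the Runt factor Runx1. The table lists Pou2af2 under its older symbol 1810046K07Rik, and its relative Pou2af3 under Colca2. These pairings are general knowledge, since the name tables used here hold only the older symbols. RNA was sequenced from mouse thymic tuft cells sorted as L1CAM+, in 3 samples per genotype. All mice carried Ikzf1fl/fl, a floxed gene for the zinc finger factor Ikaros. One group was negative for Foxn1-Cre and is given as WT, the other was positive and is given as KO. Foxn1 drives Cre in thymic epithelium as a whole, so recombination is not limited to tuft cells. The sources used here give no ages. Columns of the table carry the names Het and Ko with numbers from 1 to 3. The Ko columns were taken as the Cre-positive group, and by elimination the Het columns as the Cre-negative one. Sorted cells went into a SMART-seq lysis buffer.

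Tuft cells are rare chemosensory epithelial cells that use a taste-like signalling cascade and release acetylcholine, eicosanoids and IL-25. POU2F3 binds octamer-like DNA and is required for tuft cells to form in the thymus, gut and airway. It recruits the small coactivators encoded by Pou2af2 and Pou2af3, which resemble the B cell coactivator encoded by Pou2af1. The other members are less restricted: SOX9 and ASCL2 also act in stem and progenitor cells, SPIB in microfold and B cells, RUNX1 in blood cells, and GFI1B in platelet and red cell precursors.

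Recovered reads per library numbered between 12238428 and 31435787. Ikzf1 went against the genotype given: it stood at 301, 187 and 273 normalized counts (counts divided by a library size factor) in Het1 to Het3 and at 1572, 1463 and 1717 in Ko1 to Ko3. The log2 difference was 2.66 ± 0.30 (SE; limma adjusted p = 0.0105), and without Het3 the call was lost (adjusted p = 0.0621). The deleted part of the gene is not given, so directions below are between libraries as labelled. For the sort marker L1cam the limma adjusted p was 0.408. Of the tuft markers, the ion channel gene Trpm5 lay between 11646.8 and 19979 in the 6 libraries, and the keratin gene Krt18 between 50889 and 66183. Another, Gng13, was lower in every Ko library. It stood at 27998, 29638 and 25381 in Het1 to Het3 and at 14323, 17695 and 19502 in Ko1 to Ko3. Its adjusted p was 0.0504 by limma and 0.00183 by DESeq2 on recovered reads. Whether the libraries stem from different mice is not stated, and the p-values measure only how these libraries vary, which may be technical. In bulk RNA, fewer cells of a type and less RNA per cell cannot be told apart.

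None of the 9 factors passed the genotype test. In the limma fit on log2(value + 1), 0 of 9 were called at adjusted p under 0.05, beside 158 of 19416 tested genes, or 0.814%. At an unadjusted p under 0.05 there was 1 member, Spib, beside 13.6% of tested genes. On the recovered reads, edgeR called 0 of 9 (0.386% of genes) and DESeq2 0 of 9 (6.34%), with 1 of 9, Spib, under an unadjusted 0.05 in each (14% and 15.8% of genes). The groups did not overlap for 1 of 9, again Spib, beside 18.4% of tested genes (8.57% higher and 9.86% lower in Ko). The log2 difference was positive for 8 members and negative for Ascl2, with a median of 0.23 beside -0.05 over all tested genes. The signs of Hmx2, Sox9 and Runx1 turned when single libraries were left out. All 9 passed the filter on low values. The median half-width of their intervals was 0.51 on the log2 scale, beside 1.53 over all tested genes. The interval of Hmx3 was wider than that, from -0.405 to 3.48. The 95% intervals of Pou2f3, Pou2af2, Sox9, Spib and Runx1 exclude a change of 2-fold in either direction, and those of Gfi1b, Hmx2, Hmx3 and Ascl2 do not.

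**Figure D1:**
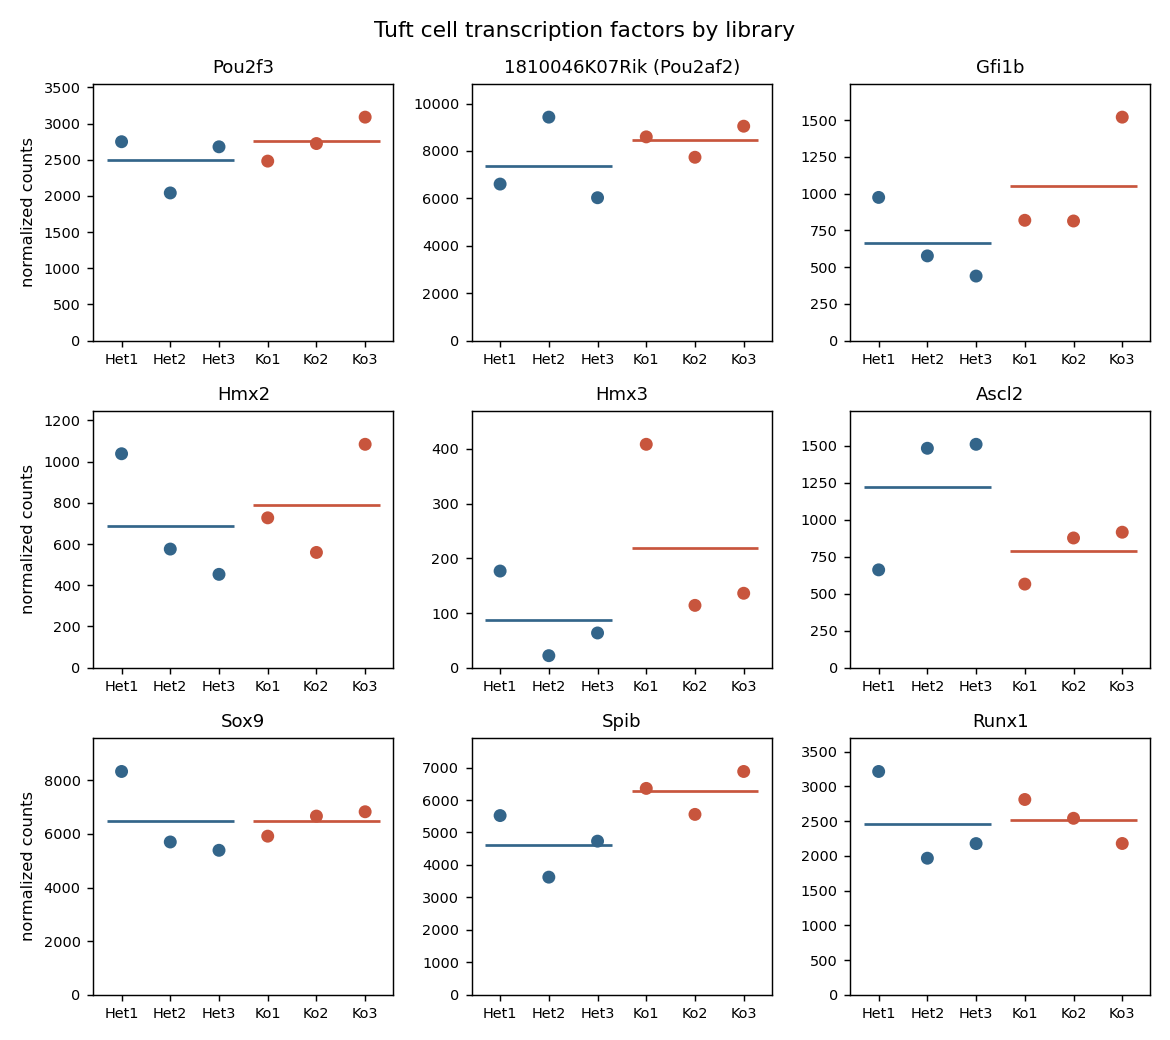
Normalized counts of the 9 factors (y axis, starting at 0) in each library (x axis). Points are libraries, blue for Het and red for Ko, and lines are group means. Only Spib has all Ko points above all Het points.

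Pou2f3, the factor on which the lineage depends, was steady. It stood at 2749.8, 2041 and 2679 normalized counts in Het1 to Het3 and at 2482, 2725 and 3089.7 in Ko1 to Ko3. The groups overlapped, with Het2 lowest and Ko3 highest, and the span from lowest to highest was only 1.51-fold. The fold of Ko over Het was 1.12 (95% interval 0.826 to 1.51; limma adjusted p = 0.786).

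Pou2af2 encodes the coactivator that POU2F3 needs in tuft cells. The RefSeq promoter table (build GRCm38.p6, whereas the authors used GRCm39) held 7 of the 9 members with 10 start sites in all. One start site of Pou2af2, shown because it alone of the 10 held the POU octamer, is printed in its transcribed direction from chr9:51328869-51329168 on the minus strand, with the octamer matches in capitals.
Pou2af2 (1810046K07Rik): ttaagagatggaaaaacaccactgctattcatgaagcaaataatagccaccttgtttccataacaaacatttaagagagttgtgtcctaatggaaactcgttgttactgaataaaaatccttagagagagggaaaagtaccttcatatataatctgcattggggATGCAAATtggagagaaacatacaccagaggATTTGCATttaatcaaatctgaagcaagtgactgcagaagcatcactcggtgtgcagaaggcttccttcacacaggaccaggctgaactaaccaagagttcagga
The octamer ATGCAAAT begins 86 bases before the start and its reverse complement ATTTGCAT begins 55 bases before it. Of 32851 promoters of this length, 1.74% held an octamer on either strand and 35, or 0.107%, held at least 2. Such a match describes letters, not a bound site.

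Levels of Pou2af2 were 6603, 9428 and 6027 normalized counts in Het1 to Het3 and 8595, 7734 and 9046 in Ko1 to Ko3. The Het libraries included both the highest and the lowest value, so the groups overlapped. The fold was 1.17 (95% interval 0.887 to 1.54; limma adjusted p = 0.638).

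Pou2af3 (Colca2), the related coactivator gene next to Pou2af2, was lower in every Ko library. It stood at 1729.7, 2092 and 1596 in Het1 to Het3 and at 483, 1089.8 and 693 in Ko1 to Ko3. The groups did not overlap. The log2 difference was -1.33 ± 0.31 (SE), a fold of 0.399 (95% interval 0.246 to 0.646), which missed the threshold in limma (adjusted p = 0.0956) and edgeR (0.162) and passed it in DESeq2 (0.00549). The authors' deposited table gives it a log2 fold change of -1.26 and an adjusted p of 0.0118, where 8.19% of genes with an adjusted p are under 0.05 and 5.16% are so and lower in Ko. An annotated antisense gene, 2010007H06Rik, overlaps exons of Colca2. It stood at 246, 346 and 387 in Het1 to Het3 and at 63.8, 46.6 and 153 in Ko1 to Ko3. The sources used here do not say whether counting used strand, so reads of this pair cannot be told apart.

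The level of Pou2af3 relative to Pou2af2 was compared after its values were seen. Pou2af3 reached 26.2%, 22.2% and 26.5% of Pou2af2 in Het1 to Het3 and 5.61%, 14.1% and 7.66% in Ko1 to Ko3. These percentages are not corrected for length, so only their change is read. The mean log2 ratio was lower by 1.56 in Ko, written as -1.56 Ko minus Het, with all Ko values below all Het values (exact two-sided permutation p = 0.1, the smallest possible with 3 against 3). Leaving out single libraries moved it between -1.92 and -1.26. For Pou2af2 relative to Pou2f3 the mean log2 ratio differed by 0.07, with overlapping groups (exact two-sided permutation p = 1).

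**Figure D2:**
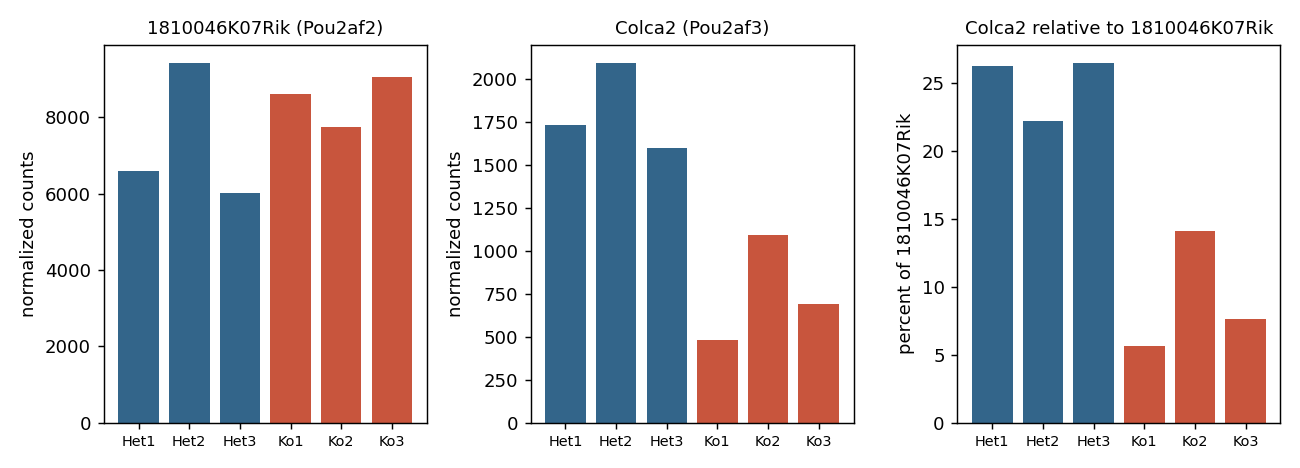
Normalized counts of 1810046K07Rik (left) and Colca2 (middle), and Colca2 as a percent of 1810046K07Rik (right), for each library on the x axis, blue for Het and red for Ko. The right panel spans 22.2% to 26.5% in Het and 5.61% to 14.1% in Ko.

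The remaining POU2F and OCA genes were not called. Pou2f1, a widely expressed octamer factor, stood at 753, 878 and 576 in Het1 to Het3 and at 776, 1189 and 703 in Ko1 to Ko3 (limma adjusted p = 0.779). Pou2f2, the B cell octamer factor, was low, with 206 reads over the Het and 54 over the Ko libraries (limma adjusted p = 0.709). Pou2af1, the B cell coactivator, was as low and irregular, from 0.710 in Het2 to 58.7 in Het1 (limma adjusted p = 0.978). Of the 4 genes 2 had groups that did not overlap, Pou2f2 and Pou2af3, beside 18.4% of all tested genes.

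Gfi1b represses transcription together with the demethylase encoded by Kdm1a. It stood at 974, 576 and 439 in Het1 to Het3 and at 818, 813 and 1519.8 in Ko1 to Ko3. Het1 lay above Ko1 and Ko2, so the groups overlapped, and Ko3 was highest. The fold was 1.60 (95% interval 0.895 to 2.86; limma adjusted p = 0.479). Among its corepressor genes, Kdm1a, Rcor1, Rcor2, Rcor3, Hdac1 and Hdac2 had 0 calls by limma, beside 0.814% of all tested genes. Platelet, red cell and mast cell markers, of blood lineages that use Gfi1b, took 0.0065% to 0.0629% of reads in Het and 0.00209% to 0.00443% in Ko, with the largest share in Het3. Of 9 tested, 2 had positive and 7 negative differences. By limma and edgeR 0 were called, and by DESeq2 4 were lower, beside 6.34% of genes in either direction. Ppbp had 51, 1 and 203 reads in Het1 to Het3 and 0 over Ko, while Gp9 had 31 over Het and 154 over Ko, nearly all in Ko1. Hbb-bs had 4889 reads over Het, 4361 of them in Het3, and 12 over Ko. Hdc, with the smallest limma p of the list (adjusted p = 0.112), had 4898 reads over Het, 3064 of them in Het2, and 413 over Ko. The part of these cells in the Gfi1b values was not tested.

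Hmx2 and Hmx3 are neighbouring homeobox genes known for inner ear and hypothalamus development. Hmx2 stood at 1039 in Het1, 576 in Het2 and 453 in Het3, and at 727, 559 and 1084 in Ko1 to Ko3. Its high libraries were Het1 and Ko3, one of each genotype. The fold was 1.18 (95% interval 0.650 to 2.13; limma adjusted p = 0.846), and its sign turned without Het3 (log2 -0.023) or without Ko3 (-0.021).

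Hmx3 was the lowest and most uneven member. Its values were 177, 22.0 and 63.5 in Het1 to Het3 and 408, 114 and 136 in Ko1 to Ko3, resting on 316, 31 and 44 reads and on 397, 110 and 95. The span from Het2 to Ko1 was 18.6-fold, and Het1 lay above Ko2 and Ko3. The fold was 2.90 (95% interval 0.755 to 11.2; limma adjusted p = 0.491), the largest estimate and widest interval of the 9. Leaving out single libraries moved its log2 difference between 0.80 and 2.27. Outside Het1 and Ko1 it rested on 31 to 110 reads per library.

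Ascl2, a factor of intestinal stem cells, was the only member with a negative log2 difference. It stood at 661, 1482 and 1509 in Het1 to Het3 and at 565, 876 and 915 in Ko1 to Ko3. Het1 lay below Ko2 and Ko3, so the groups overlapped. The fold was 0.674 (95% interval 0.383 to 1.19; limma adjusted p = 0.553), and leaving out single libraries moved the log2 difference between -0.96 (without Het1) and -0.35 (without Ko1). Aire-stage epithelial markers were also highest in Het2 and Het3: their share of reads was 0.668% in Het1, 1.56% in Het2 and 1.54% in Het3, against 0.554%, 0.740% and 0.456% in the Ko libraries. Within Ko the likeness failed, since Ko3 had the lowest share and the highest Ascl2. The most abundant markers were the antigen presentation genes Cd74, H2-Ab1 and H2-Aa, averaging 84707, 30196 and 26967 normalized counts in the authors' deposited table. All 10 markers had negative differences, with a median of -1.55, while 47.2% of all tested genes had a positive one. At an unadjusted limma p under 0.05 there were 7, beside 13.6% of tested genes. DESeq2 called 6 lower, beside 6.34% of genes in either direction. Limma and edgeR called 1 (0.814% and 0.386% of genes), the cathepsin gene Ctsz (limma adjusted p = 0.0122). That limma call was lost without Het2 (0.0614) or Het3 (0.0918). The part of these markers in the Ascl2 values was not tested.

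Genes for the E proteins that pair with ASCL factors were measured beside it. Tcf4 stood at 2316, 2187 and 2096 in Het1 to Het3 and at 3864, 4346 and 3736 in Ko1 to Ko3, without overlap. Its log2 difference of 0.85 missed the threshold (limma adjusted p = 0.0504), and it passed under 5 of 14 alternatives, with adjusted p from 3.46e-04 to 0.196. Tcf3 also did not overlap, at 156 to 305 in Het and 398 to 750.0 in Ko (limma adjusted p = 0.276). Of the list of 14 cofactor and partner genes, 0 were called by limma and edgeR (0.814% and 0.386% of genes). By DESeq2 1, Tcf4, was higher, beside 6.34% of genes in either direction. Of the 14, 8 had positive and 6 negative differences, and the median was 0.32. The groups did not overlap for 5 of the 14, beside 18.4% of all tested genes. Runx1t1, a corepressor gene of the ETO family, lay between 80.8 and 395 in Het and between 404 and 592 in Ko (limma adjusted p = 0.294).

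Sox9, which also marks progenitors, spanned 1.55-fold over the libraries. It stood at 8323, 5696 and 5386 in Het1 to Het3 and at 5913, 6661 and 6823 in Ko1 to Ko3. Het1 was highest and Het3 lowest, so the Ko values lay within the Het range. The group means were 6469 ± 1614 and 6466 ± 485 (SD, n = 3 each). The fold was 1.02 (95% interval 0.766 to 1.35; limma adjusted p = 0.974). The related progenitor factor gene Sox4 had Ko values of 4694 to 5197 above Het values of 3472 to 4157, with a limma adjusted p = 0.315.

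Spib, which encodes a factor of microfold, B and plasmacytoid dendritic cells, was the only member without overlap. It stood at 5521, 3624 and 4733 in Het1 to Het3 and at 6357, 5557 and 6878 in Ko1 to Ko3. Ko2 exceeded Het1 by little, while Het2 was well below the others. The log2 difference was 0.45 ± 0.18 (SE), a fold of 1.37 (95% interval 1.03 to 1.82), with an unadjusted p of 0.0338 and a limma adjusted p = 0.319. Adjusted p-values over 14 alternatives ran from 0.182 to 0.599. The authors' deposited table gives a log2 fold change of 0.44 and an adjusted p of 0.291.

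Markers of other cells that use Spib were measured beside it. Among 10 microfold markers, 2 fell and 0 rose by limma, beside 0.525% and 0.288% of all tested genes. Gp2, a receptor for bacterial pili, went from 13495 ± 7002 in Het to 801 ± 510 in Ko (mean ± SD of 3 libraries). Pglyrp1, a peptidoglycan recognition gene, went from 8536 ± 2786 to 1707 ± 674. Their limma adjusted p-values were 0.0123 and 0.0190. Both calls were lost without Het3 (0.125 and 0.139), and that of Pglyrp1 without Het2 (0.107). Sox8, another microfold factor gene, was at 163 ± 118 and 343 ± 201 (limma adjusted p = 0.497). B cell markers took 0.0143% to 0.0212% of reads in Het and 0.0299% to 0.0375% in Ko. Cd79b, a subunit gene of the B cell receptor, made up 73.1% to 90.4% of that share, and without it the list took 0.00311% to 0.00389% in Het and 0.00287% to 0.00653% in Ko, with overlap. Of 8 tested, 5 had positive and 3 negative differences, Cd79b rose and 0 fell (limma adjusted p = 0.0433, 0.0826 by edgeR, and 0.0661 to 0.171 when any library but Het1 was left out). The defining B cell gene Ms4a1 had 7 reads over all Het libraries and 4 over all Ko libraries. Others of that list were detected, in differing directions. Cd79a had 160 reads over Het, 152 of them in Het2, and 4 over Ko. Pax5 had 173 reads over Het and 54 over Ko, and Fcer2a had 71 and 179. Spi1, a close relative of Spib in myeloid cells, lay between 9.32 and 92.3 in all libraries.

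Runx1 binds DNA with the partner encoded by Cbfb. One Runx1 start site is shown because it holds a pair of RUNX cores, in capitals, just after the start: chr16:92826025-92826324, minus strand, GRCm38.p6.
Runx1: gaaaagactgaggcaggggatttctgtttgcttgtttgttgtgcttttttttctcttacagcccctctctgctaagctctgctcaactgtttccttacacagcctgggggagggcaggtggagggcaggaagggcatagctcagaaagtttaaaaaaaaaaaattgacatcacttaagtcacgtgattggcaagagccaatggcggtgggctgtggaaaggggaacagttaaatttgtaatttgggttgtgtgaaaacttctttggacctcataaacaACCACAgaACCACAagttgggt
The capitals mark ACCACA, the reverse complement of the core TGTGGT, beginning at bases 29 and 37 of the transcript. A RUNX core on either strand was held by 2 of the 10 start sites, this one and one of Hmx2, beside 16.8% of all promoters. The Ikaros core TGGGAA (or TTCCCA) was held by 0 of 10, beside 25.6% of all promoters.

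Levels of Runx1 were 3215, 1967 and 2177 in Het1 to Het3 and 2812, 2541 and 2179 in Ko1 to Ko3. Het1 was highest and Het2 lowest, so the Het range enclosed the Ko values. The fold was 1.04 (95% interval 0.734 to 1.48; limma adjusted p = 0.941). Myeloid markers also took the largest share of reads in Het1, 0.309%, against 0.0281% in Het2, 0.0528% in Het3 and 0.0053% to 0.0191% in Ko. The lysozyme gene Lyz2 made up 98.2% of that share in Het1. Without Lyz2 the list took 0.00547% in Het1, 0.00764% in Het2, 0.00415% in Het3 and 0.00242% to 0.00315% in Ko. The macrophage genes Csf1r, Adgre1 and Cd68 were lower in Het1 than in Het2 and Het3. Itgam and Fcgr3 of the same list were instead highest in Het1. They stood at 310 and 256 in Het1, against 139 and 69.6 in Het2 and 167 and 77.9 in Het3. Between genotypes all 7 tested myeloid markers had negative differences, with a median of -3.34. By limma and edgeR 0 were called (0.814% and 0.386% of genes), and by DESeq2 3 were lower, beside 6.34% of genes in either direction. Thymocyte markers took 0.00184% to 0.00763% of reads in any library, with Cd8a, Rag1, Rag2 and Ptcra at 9 reads or fewer over each group. Others of that list were detected: Lck had 541 reads over Het and 189 over Ko, and Cd3g had 109 and 164. Themis, a T cell selection gene, stood at 8.39, 58.9 and 79.4 in Het1 to Het3 and at 434, 379 and 908 in Ko1 to Ko3, and missed the threshold in limma (log2 3.90, adjusted p = 0.0735) but not in DESeq2 (4.33e-05). The part of these cells in the Runx1 values was not tested.

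**Figure D3:**
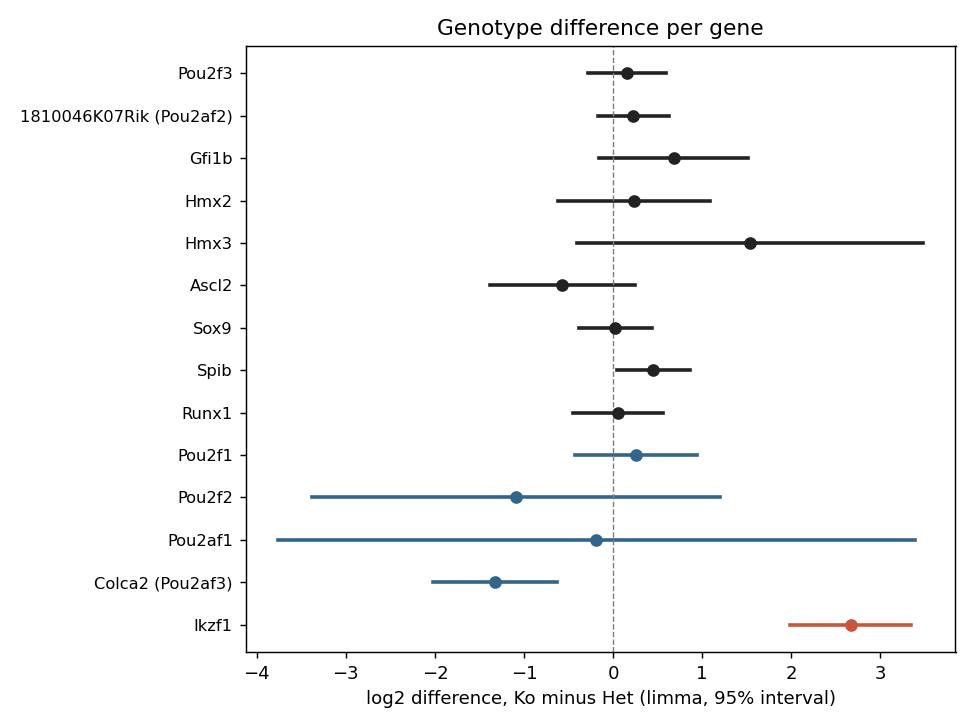
Log2 difference of Ko minus Het (x axis, points) with its 95% interval from limma (lines) for the 9 factors in black, the other POU2F and OCA genes in blue and Ikzf1 in red. Of the black intervals, only that of Spib lies wholly on one side of 0.

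Relatives of the members had no calls. Of 13 listed relatives, 7 passed the filter and 0 were called by limma, beside 0.814% of all tested genes. At an unadjusted limma p under 0.05 there was 1, beside 13.6% of tested genes. Those under the filter were Gfi1, Hmx1, Ascl3, Ascl4, Ascl5 and Sox10. Ascl5 had 0 reads in Het and Ascl3 had 0 in Ko.

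Tuft effector genes, the cascade and secreted products that the factors serve, had a few calls. Of 31, all passed the filter, 23 had positive and 8 negative differences with a median of 0.26, and by limma 2 rose (background 0.288%) and 1 fell (0.525%). By edgeR 1 was higher and 0 lower (0.386% of genes in either direction), and by DESeq2 3 and 3 (6.34%). Rgs13, whose product dampens G protein signals, rose from a mean of 32005 ± 2645 in Het to 81568 ± 15215 in Ko (limma adjusted p = 0.00868). Ptgs1, the cyclooxygenase-1 gene, rose from 3813 ± 1149 to 9203 ± 645 (0.0264). Gnb3, a beta subunit of G proteins, fell from 11988 ± 1218 to 5274 ± 1657 (0.0341). All 3 calls were lost without Het3 (0.0621, 0.148 and 0.153). Ptgs1 also lost its call without any other single library but Het1, and Gnb3 without any other but Ko3. The effector list took 1.57% to 2.18% of reads in Het and 2.19% to 2.56% in Ko, without overlap. Without Rgs13 that share was 1.98%, 1.68% and 1.39% in Het1 to Het3 and 1.80%, 1.76% and 2.001% in Ko1 to Ko3, with overlap. The 9 factors took 0.131% to 0.166% and 0.155% to 0.181%, with overlap. The shares of the whole effector list and of the factors were lowest in Het3 and highest in Ko3.

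Of the marker lists of other epithelial cells, secretory and neuroendocrine genes took 0.682% to 0.954% of reads in Het and 0.0184% to 0.165% in Ko. The most abundant of them, Reg3g, averaged 69460 normalized counts in the authors' deposited table, beside 4360 for Fcgbp, the next. The share without Reg3g was not taken. Of 11 tested, 9 had negative differences and 2, Foxa2 and Foxa3, positive ones. By limma 3 fell, beside 0.525% of all tested genes. They were Reg3g, Fcgbp and Muc13 (limma adjusted p = 0.0341, 0.0408 and 0.0476). By edgeR the adjusted p-values were 0.176, 0.0826 and 0.0773, and without Het3 they were 0.179, 0.192 and 0.236 in limma. Reg3g was called under 8 of 14 alternatives, Fcgbp under 9 and Muc13 under 6. Muc13 was called in none of the 6 fits that left out a library. Ciliated and ionocyte genes took 0.00795% to 0.0135% and 0.00525% to 0.00902%. Of 7 tested, 0 were called by limma and edgeR and 3 were lower by DESeq2, beside 6.34% of genes in either direction. They were the ciliated cell genes Foxj1 and Tekt1 and the ionocyte gene Foxi1 (DESeq2 adjusted p = 0.0082, 0.00116 and 0.00391). Each was without overlap, as were 18.4% of all tested genes. Of the 7, 5 had negative and 2 positive differences. The positive ones were the ionocyte genes Atp6v1b1 and Cftr (log2 2.66 and 2.18, limma adjusted p = 0.506 and 0.638), so the ionocyte genes went in differing directions. Cortical genes took 0.0764% to 0.149% and 0.0936% to 0.110%. Of 8, 0 were called by limma and edgeR. DESeq2 called 1, Foxn1, lower (adjusted p = 0.0302, limma 0.162), beside 6.34% of genes in either direction. Foxn1, whose promoter drives Cre here, stood at 240.5, 442 and 328 in Het1 to Het3 and at 110.1, 107.7 and 85.9 in Ko1 to Ko3. Immature medullary genes took 0.179% to 0.258% of reads in Het and 0.115% to 0.185% in Ko, with overlap. Of 7 tested, 5 had positive and 2 negative differences, with a median of 0.49. By limma 1, Ly6a, fell (adjusted p = 0.0306, edgeR 0.0773), beside 0.525% of all tested genes. Its call was kept under 8 of 14 alternatives. The part of these cells in the values of the factors was not tested.

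Levels of different genes were compared per length, as RPKM (reads scaled to the length of merged exons and to the library total), with GENCODE M21 exon lengths on GRCm38. Pou2af2 led with a mean of 312 ± 55.0 over the 6 libraries (SD), at the 98.9th percentile of tested genes. Spib followed with 108 ± 24.1 and Sox9 with 88.6 ± 15.03. These neighbours did not differ beyond their spread: Spib was the higher in 4 of 6 libraries. Pou2f3 came next, at 48.2 ± 6.58 and the 93.6th percentile, below Sox9 in 6 of 6 libraries. Ascl2 (34.8 ± 13.6) and Gfi1b (26.6 ± 11.9) were higher and lower than each other in 3 libraries each, and Ascl2 lay below Pou2f3 in only 4 of 6. Hmx2 (13.1 ± 4.76) and Runx1 (11.7 ± 2.31) likewise did not separate, with Hmx2 higher in 3 of 6. Hmx3 was lowest, at 6.02 ± 5.44. Merged exons can overstate the length of a gene with several alternative transcripts, and for Runx1 they add up to 12025 bases, so its level per length may be understated.

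**Figure D4:**
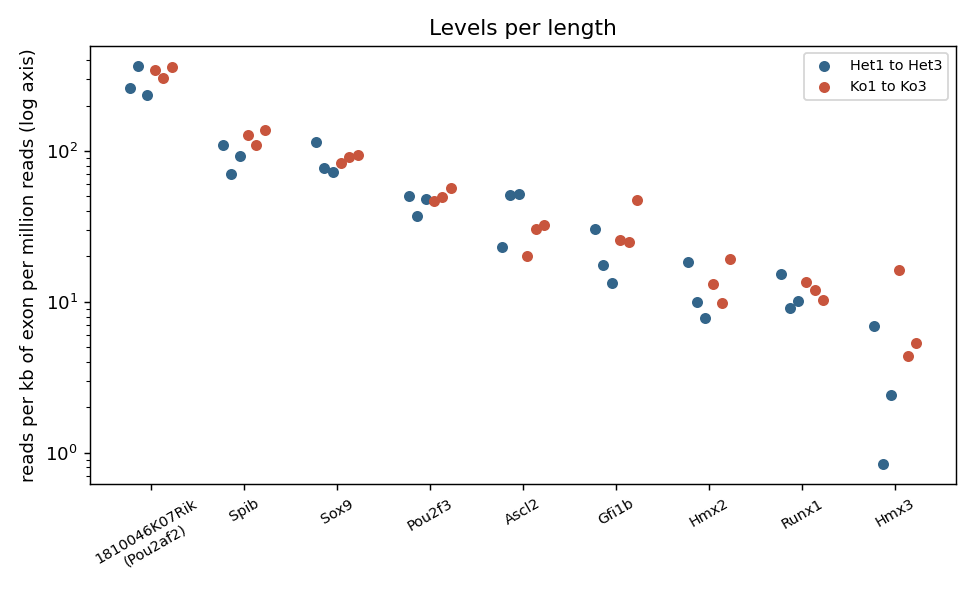
RPKM over merged exons (y axis, log scale) for the 9 factors, ordered by their mean. Each point is a library, blue for Het and red for Ko. Pou2af2 stands above all other members in every library, and Hmx3 spans the widest range.

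Across the libraries the members did not move as one. Ko3 held the highest value of 4 members (Pou2f3, Gfi1b, Hmx2 and Spib), and Het2 and Het3 held the lowest value of 4 each. Gfi1b and Hmx2 had the highest likeness of any pair in log2(value + 1), with Pearson's r of 0.90 over the 6 libraries, given as a description. Ascl2 had a negative r with each of the other 8, from -0.92 with Hmx3 to -0.08 with Pou2af2. Pou2af2 had low values of r, from -0.37 to 0.41, and was at -0.34 with Pou2f3. These points share library depth and cell makeup.

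**Figure D5:**
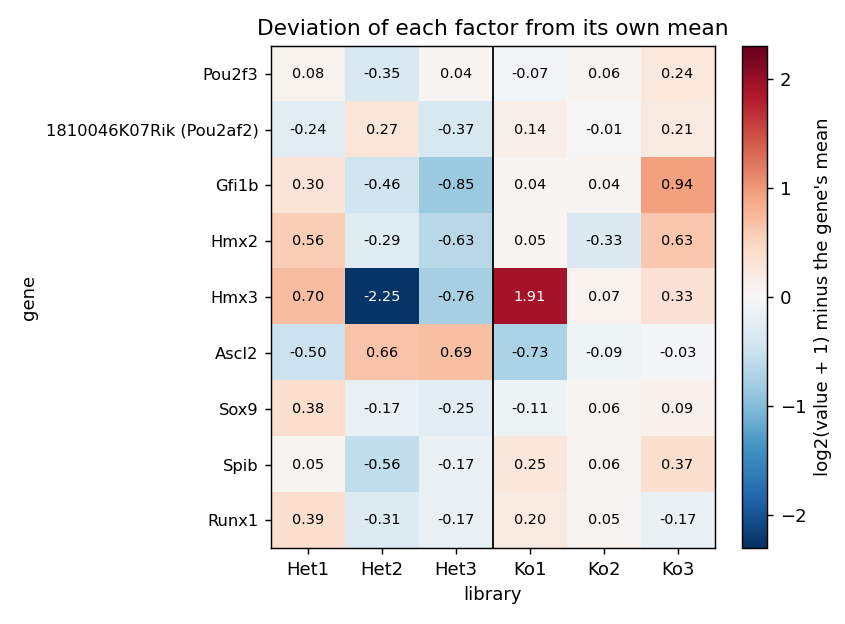
Deviation of each factor (y axis) from its own mean of log2(value + 1) in each library (x axis), red above and blue below the mean. Hmx3 spans -2.25 in Het2 to 1.91 in Ko1, while Pou2f3 stays between -0.35 and 0.24.

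The pattern of each member over the libraries was compared with that of genes averaging at least 50 normalized counts. The closest were Abcf2 and Spats2 for Pou2f3, Naa40 for Pou2af2, Erich1 and Rsrc2 for Gfi1b, Lima1 and Scmh1 for Hmx2, and Pi4ka and Rpl21 for Hmx3. For Ascl2 they were Ndufs8 and Uqcrq, both of the respiratory chain, for Sox9 Gnb1 and Naglu, for Spib Ctc1 and Cavin3, and for Runx1 Champ1 and Rala. Pearson's r of these genes lay between 0.968 and 0.996 over 6 libraries. Each member had between 10 and 51 genes at or above 0.95 among about 12274 compared.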

How the data were processed

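RNA of L1CAM+ thymic tuft cells was sequenced from 6 samples, 3 per genotype. STAR 2.7.9a, the GRCm39 build and DESeq2 are named in the submitters' processing notes; the sources used here do not give how reads were counted, or on which annotation and strand. The authors deposited normalized values (unit signal), in which each library's gene counts were scaled by its own size factor. Their deposited comparison table, per the file headers, has the mean, the log2 fold change and its error, the Wald statistic (a score), and raw and adjusted p-values. Whole reads were recovered for 100% of nonzero values (tolerance 0.01). Symbols came from a gene name table that matched 55144 genes. The test was limma 3.58.1 (R 4.3.3), fitted to log2(value + 1) for genes averaging at least 10 (mean-variance trend, two-sided, Benjamini-Hochberg adjustment at 0.05), with genotype as the only term. Such log2 differences understate changes of low genes. Intervals are 95% limma intervals. The test was checked on simulated data. Replicates of a group differed by more than sampling noise (chi-square per degree of freedom 51.7 to 121). Alternatives were pseudocounts 0.5 and 5, filtering at 50 or not at all, TMM, edgeR 4.0.16, DESeq2 1.42.0, array weights, and leaving out each library. Named genes were the members, Ikzf1, L1cam, the POU2F and OCA list, the called genes or the 3 smallest p of each list, and the 2 genes most like each member; the remaining markers, the shares without one gene, the antisense gene and the ratio of Pou2af3 to Pou2af2 were chosen after their values were seen. A few genes these rules name are not reported here. Members and lists were chosen with earlier results of these data known.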

Additional observations from a re-analysis of the deposited data

How the results depend on the processing

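No member was called under any of the 14 alternatives. With edgeR 24 genes were higher and 51 lower over all genes, and with DESeq2 371 and 747, in place of 56 and 102. Leaving out 1 library gave 0 to 47 higher and 0 to 94 lower genes, with 47 and 59 without Het1, 9 and 5 without Het2, 0 and 0 without Het3, 22 and 94 without Ko1, 10 and 46 without Ko2, and 9 and 41 without Ko3. In the limma fit that omitted Het3, the unadjusted p was under 0.05 for 2080 genes. The log2 difference changed sign when single libraries were left out for Hmx2 (-0.023 to 0.57), Sox9 (-0.094 to 0.22), Runx1 (-0.084 to 0.27), Pou2af1 (-1.80 to 0.76) and the cortical gene Psmb11 (-2.46 to 0.13). For Pou2af1 it was also 0.065 with array weights. The cause was not tested. Pou2af3 kept its direction, with log2 differences from -1.63 to -1.04 and adjusted p from 0.00549 to 0.297. No paired analysis was possible because the sample numbers in the labels are not shared between genotypes and the columns could not be tied to them; those numbers alternate between genotypes, and whether neighbouring numbers form pairs is not stated. Leaving one gene out of a list moved the difference in its mean share of reads (percent, Ko minus Het) from 0.452 to 0.166 for tuft effector genes (Rgs13), 0.0173 to 9.97e-04 for B cell markers (Cd79b) and -0.119 to -0.00298 for myeloid markers (Lyz2), chosen after seeing the data. Hmx3, Pou2f2 and Pou2af1 rest on few reads.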
